A study of Mus musculus with 55 samples.

Results

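The 10 genes described here carry out the urea cycle of the liver and feed ammonia into it. They are Cps1, Otc, Ass1, Asl and Arg1, the enzymes of the cycle, Nags, which makes the activator of CPS1, the mitochondrial carriers Slc25a15 and Slc25a13, and the ammonia-releasing enzymes Gls2 and Glud1. They were picked by name from general knowledge, with earlier results of these data known. All 10 were found among the 34490 gene symbols that the 2 batches of libraries share. Every member passed the filter on low counts, and the lowest read count of a member in any of the 53 libraries was 668.

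The urea cycle turns ammonia, which is toxic, into urea for excretion. Ammonia released from glutamine by glutaminase (GLS2) and from glutamate by glutamate dehydrogenase (GLUD1) enters as carbamoyl phosphate in the mitochondria. In the liver lobule, glutaminase and the urea cycle are known for their high levels around the portal vein, whereas glutamine synthetase (Glul), which captures the ammonia that escapes, is restricted to hepatocytes around the central vein. WNT signalling maintains the pericentral pattern, and RNF43 and ZNRF3 are E3 ubiquitin ligases that remove the WNT receptors from the cell surface.

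Whole livers of adult C57BL/6 mice were sequenced after Cre-mediated deletion of the floxed exons that encode the RING domains of Rnf43 and Znrf3 in hepatocytes (R&Z del), beside mice that carry the same floxed alleles without deletion (R&Z flox). Cre came from tamoxifen-induced AlbCreERT2, which is active in cells that express albumin, in batch 1 and in the 7M mice of batch 2. An AAV8 virus with Cre under the hepatocyte promoter TBG was used in the other mice of batch 2. The controls had received vehicle or AAV8-null, and both strategies leave Rnf43 and Znrf3 intact in the other cells of the liver. Undamaged livers were taken at 1M (4 R&Z del mice and 4 controls), 3M (2 and 5) and 7M (5 and 5) after deletion. Chronic damage (CD) was given as repeated injections of the hepatotoxin CCl4, and male livers were taken 4 days (2 and 2), 50 days (2 and 1) and 170 days (2 and 2) after the last injection. GEO's labels mark the R&Z flox livers of this series of times as damaged too, while a passage of the study's methods gives the control littermates vehicle alone. The study's results also describe damaged wild-type controls. The labels were followed here, and the labels alone could not settle the passage in the methods. Livers were also taken 7 days (3 and 3) and 21 days (3 and 3) after partial hepatectomy (PHx). The labels do not say whether samples of a group came from separate litters, and the p-values measure the spread between these libraries.

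The values are CPM, the reads of a gene divided by the library's reads on genes and scaled to a common total, from totals of 22678922 to 38692089 reads per library in batch 1 and 11721687 to 32168223 in batch 2. Summed over the whole genes, reads of Rnf43 and Znrf3 were not lower in R&Z del livers. At 1M, Znrf3 ranged from 40.7 to 117.2 CPM in R&Z del and from 8.93 to 29.5 CPM in R&Z flox livers. The deleted exons were not counted apart, so these sums do not check the deletion. Hepatocyte markers were abundant in every group, with 6 of 7 listed genes found and summed levels of at least 64220 CPM. The library of R&Z del replicate 4 at 7M stood apart from its group. It had 308.5 CPM of Glul, against 1096 and 1121 CPM in the others of its batch and 158.6 CPM in the highest control, and results at 7M are given with and without it. Titles and other labels conflict for 7 libraries of batch 1, of which 5 were left out of every comparison. The other 2 were placed by their recorded genotype, damage and time: the R&Z del library of batch 1 at 3M, whose title says 7M, and R&Z flox replicate 5 at 7M, whose title says CD 170d.

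The promoters of members that moved and of members that did not are shown for orientation. RefSeq promoters on GRCm38.p6 were found for 6 of the 10 members. The bases before the annotated gene model are printed for the 4 members on the + strand, and those of Slc25a15 and Slc25a13, which overlap their gene models, are not shown. They are Otc at chrX:10252055-10252229, Ass1 at chr2:31470020-31470269, Nags at chr11:102145263-102145512 and Glud1 at chr14:34310477-34310726. Capitals mark matches, on either strand, to the TCF/LEF words CTTTGAA and CTTTGAT, to TTNNGNAA, a C/EBP-type word, and to GGGCGG, the GC box.
Otc: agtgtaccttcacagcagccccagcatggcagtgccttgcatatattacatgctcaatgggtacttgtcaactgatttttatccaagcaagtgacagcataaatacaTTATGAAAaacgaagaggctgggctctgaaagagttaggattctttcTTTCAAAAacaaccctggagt
Ass1: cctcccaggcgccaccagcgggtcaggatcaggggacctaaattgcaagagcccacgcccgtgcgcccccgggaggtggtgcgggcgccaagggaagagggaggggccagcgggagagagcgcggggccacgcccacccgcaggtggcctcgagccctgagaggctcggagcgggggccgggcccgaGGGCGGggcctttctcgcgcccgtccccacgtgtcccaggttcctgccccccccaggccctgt
Nags: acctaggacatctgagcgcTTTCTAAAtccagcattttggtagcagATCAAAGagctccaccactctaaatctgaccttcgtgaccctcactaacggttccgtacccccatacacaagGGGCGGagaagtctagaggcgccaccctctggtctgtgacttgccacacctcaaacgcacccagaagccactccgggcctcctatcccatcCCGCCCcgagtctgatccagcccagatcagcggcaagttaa
Glud1: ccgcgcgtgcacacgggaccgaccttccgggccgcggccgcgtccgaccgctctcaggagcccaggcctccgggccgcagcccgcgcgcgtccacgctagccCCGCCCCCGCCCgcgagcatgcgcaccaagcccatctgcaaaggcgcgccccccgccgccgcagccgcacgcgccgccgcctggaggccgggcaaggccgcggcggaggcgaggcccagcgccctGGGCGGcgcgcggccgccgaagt

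Otc, with 43.6% G and C in a RefSeq window of 250 bases of which 75 lie inside the gene model used for counting, held 2 matches to TTNNGNAA. Nags, with 55.6%, held 1 match to CTTTGAT, 1 to TTNNGNAA and 2 to GGGCGG. The promoters of Ass1 (75.6%) and Glud1 (82.0%) held 1 and 3 matches to GGGCGG, and the median over all promoters was 52.4% G and C. Over all 32851 promoters, CTTTGAA was present in 4.46%, CTTTGAT in 3.21%, TTNNGNAA in 36.8% and GGGCGG in 32.7%. Neither CTTTGAA nor the palindromic CRE word TGACGTCA (1.55% of promoters) nor the DR1 repeat of nuclear receptors (0.0335%) were found in these 4 windows. The matches are a description of the letters and were not tied to binding of a factor.

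The members differed widely in level in control livers. Per kb of exon, undamaged R&Z flox livers at 1M held 950.1 ± 145.2 CPM of Arg1 (SD, n = 4), the enzyme that releases urea, 467.0 ± 53.2 of Ass1 and 360.9 ± 33.1 of Cps1. Asl (308.9), Glud1 (203.9), Gls2 (148.8) and Otc (134.3) followed, each with a range that overlapped that of its neighbour. The mitochondrial ornithine carrier Slc25a15 (52.8) and Nags (47.6) also overlapped, and the aspartate-glutamate carrier Slc25a13 was lowest at 20.9 CPM per kb. Cps1 has another annotated copy on an alternate contig in the batch 1 annotation, and its level per kb was taken over the 5579 exon bases of the primary copy. In R&Z del livers of the same age, Ass1 (405.2 ± 76.2) and Arg1 (345.3 ± 66.5) overlapped at the top. Gls2 lay at rank 9 with 40.5 ± 11.9, and its range of 23.5 to 51.1 overlapped those of Nags, Slc25a15 and Slc25a13. Together the 10 members took from 0.603 to 0.788% of all counted reads in R&Z flox and from 0.418 to 0.464% in R&Z del livers at 1M.

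At 1 month after deletion, before any damage, the largest changes among the members were in glutamine-derived ammonia entry and in the last step of the cycle. Gls2 and Arg1 fell in R&Z del livers, and 2 of the 10 members passed the test, both lower, where 0.265% of the 12848 genes tested were called lower. A gene was called at an adjusted p under 0.1 by edgeR's quasi-likelihood test with Benjamini-Hochberg adjustment over all genes. Cps1, Otc and Asl did not pass, although each was lower in every R&Z del library than in any R&Z flox library. In all, 5 members had groups that did not overlap in the lower direction, against 1.54% of the 11286 genes compared in this way.

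Gls2 (chr10:128194635-128210004, mm10) encodes the liver form of glutaminase, which splits glutamine into glutamate and ammonia. R&Z flox livers held 333.1, 321.1, 349.5 and 478.0 CPM of Gls2, and R&Z del livers 109.8, 127.1, 58.4 and 107.6 CPM. The highest R&Z del library lay far below the lowest control. The fold change was 4.18-fold lower (log2 fold change -2.06, SE 0.30, adjusted p = 0.000642 by edgeR). Glud1 (chr14:34310727-34345033), which releases ammonia from glutamate, ranged from 556.6 to 734.0 CPM in R&Z flox and from 694.8 to 880.0 CPM in R&Z del livers, with overlapping groups and a log2 fold change of 0.06 (SE 0.16).

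Cps1 (chr1:67122426-67231267) encodes carbamoyl phosphate synthetase, the entry and rate-controlling step of the cycle, and took the most reads of the 10 members at 1M. It was at 1802, 2108, 1927 and 2217 CPM in R&Z flox and at 954.7, 1300, 1186 and 1397 CPM in R&Z del livers. The groups did not overlap, and the log2 fold change of -0.91 (SE 0.28) did not pass (adjusted p = 0.257). Nags (chr11:102145513-102149528), whose product N-acetylglutamate switches CPS1 on, was between 88.3 and 115.4 CPM in R&Z flox and between 97.6 and 126.1 CPM in R&Z del livers. Its log2 fold change was -0.02 (SE 0.24).

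Arg1 (chr10:24915207-24927470) encodes arginase, which cleaves arginine into urea and ornithine. Its level was 1130, 1338, 1543 and 1602 CPM in R&Z flox and 626.0, 443.8, 414.9 and 555.1 CPM in R&Z del livers. All 4 R&Z del libraries lay below all 4 controls, a 3.11-fold lower level (log2 fold change -1.64, SE 0.37, adjusted p = 0.0504). Otc (chrX:10252230-10321024), which joins carbamoyl phosphate to ornithine, was at 561.0, 539.0, 784.4 and 687.3 CPM in R&Z flox and 419.4, 400.2, 217.4 and 276.4 CPM in R&Z del livers. The 2 male R&Z del livers, with 217.4 and 276.4 CPM, were lower than the 2 female ones, and in R&Z flox livers the males were likewise lower. The log2 fold change of Otc was -1.17 (SE 0.30), and it did not pass (adjusted p = 0.123).

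Asl (chr5:130011258-130024381) encodes argininosuccinate lyase and ranged from 496.8 to 910.1 CPM in R&Z flox and from 354.1 to 437.3 CPM in R&Z del livers. Its log2 fold change of -0.95 (SE 0.26) had an adjusted p of 0.168. The argininosuccinate synthetase gene Ass1 (chr2:31470270-31520670), directly upstream of it in the cycle, overlapped between the groups, at 695.9 to 889.1 and 535.6 to 770.9 CPM, with a log2 fold change of -0.39 (SE 0.26). The carriers showed no difference past the threshold. Slc25a15 (chr8:22375550-22398621) was at 173.1 to 253.5 and 159.6 to 242.6 CPM, and Slc25a13 (chr6:6041218-6217304) at 83.2 to 117.3 and 103.7 to 150.1 CPM.

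Over the 10 members at 1M the median log2 fold change was -0.65, against 0.01 over all genes tested, and 5 members had an unadjusted p under 0.05, where 7.74% of all genes had. The count rested on single libraries. Arg1 lost its call when any of the 4 R&Z del libraries or R&Z flox replicate 2, 3 or 4 was left out, and Gls2 remained called each time. Without TMM, edgeR's scaling for composition, the median of all genes moved by 0.18, the calls over all genes went from 30 higher and 34 lower to 43 and 19, and only Gls2 stayed called among the members. Summed hepatocyte markers were 69070 to 87850 CPM in R&Z del and 116200 to 132800 CPM in R&Z flox livers. Of their 6 genes 1, Alb, was called lower. In bulk RNA, fewer cells of a type and less RNA per cell cannot be told apart, and the part of these markers in the result was not tested. Markers of cholangiocytes summed to 48.3 to 81.5 CPM in R&Z del and 61.7 to 140.7 CPM in R&Z flox livers, none of 5 was called, and Krt7 was at 0 in all 4 R&Z flox and in 3 R&Z del libraries.

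**Figure D1:**
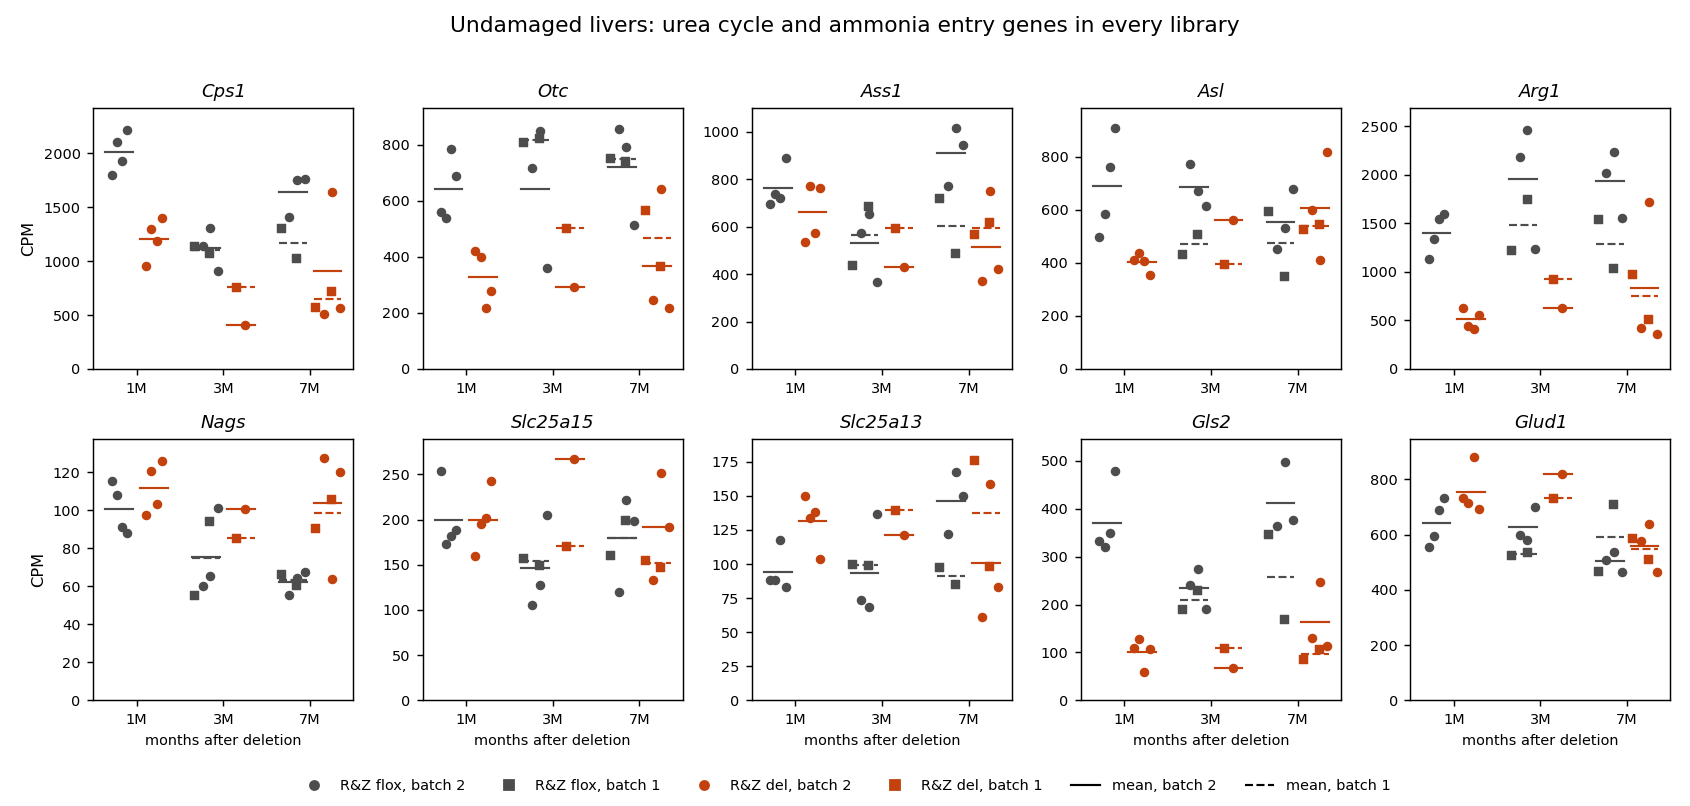
Levels of the 10 genes in every undamaged library, as CPM (y axis, from 0) against months after deletion (x axis), with R&Z flox in grey and R&Z del in orange, circles for batch 2, squares for batch 1, and lines for the mean of each batch. At 1M the R&Z del points of Gls2 lie between 58.4 and 127.1 CPM, below all controls, and at 7M 1 R&Z del point lies high for Cps1, Otc, Arg1 and Gls2.

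At 3 months none of the 10 members passed edgeR's test, where 0.226% of 12848 genes did, and DESeq2 called 1, Gls2. Only 2 R&Z del libraries could be used, a virus-induced male in batch 2 and a tamoxifen-induced female in batch 1 whose title gives 7M instead. Among the libraries left out, 2 have titles of this group with other labels that conflict. At an unadjusted p under 0.05 there were 5 members, where 6.43% of all genes had such a p. Gls2 was at 67.7 CPM in the R&Z del liver of batch 2, with controls at 241.4, 274.4 and 190.6 CPM, and at 108.7 CPM in that of batch 1, with controls at 190.7 and 230.0 CPM. The R&Z del liver was the lower in both batches.

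In the fit of both batches, the log2 fold change of Gls2 at 3M was -1.48 (SE 0.41, adjusted p = 0.237). Arg1 was at 625.4 CPM in batch 2 against 1239 to 2459 CPM, and at 925.7 CPM in batch 1 against 1224 and 1748 CPM (-1.28 on the log2 scale, SE 0.49, adjusted p = 0.587). Cps1 (-0.96, SE 0.37) and Otc (-1.17, SE 0.39) were below their controls in each batch as well. Within batch 2 the log2 fold changes of Gls2 and Arg1 were -1.81 and -1.68. Within batch 1 they were 0.17 and -0.03, in a fit where the sex term rested on the R&Z del female and 1 control female of 7M. In plain CPM the same 5 members as at 1M lay below all their controls in each batch, against 22.3% of genes in batch 1 and 23.1% in batch 2, where 1 library had to lie below 2 or 3. Slc25a15 and Glud1 lay above all their controls in each batch, and Slc25a13 did in batch 1. The share of all genes in that direction is not given here.

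At 7 months Gls2 fell and the other 9 members did not pass, so that 1 of 10 was called lower, against 0.233% of genes. In batch 2, Gls2 was at 365.0, 497.3 and 375.9 CPM in R&Z flox and at 130.1, 246.2 and 112.9 CPM in R&Z del livers. In batch 1 it was at 347.1 and 169.6 CPM in R&Z flox and 85.8 and 107.8 CPM in R&Z del livers. The lower batch 1 control was the female, the library whose title gives CD 170d. Without it Gls2 stayed called. The log2 fold change was -1.30 (SE 0.27, adjusted p = 0.0214), and it was -1.92 within batch 1 and -1.29 within batch 2, and it did not pass in either batch alone. The call was also lost without R&Z flox replicate 1, the control of 347.1 CPM.

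The R&Z del library that stood apart at 7M did so for most members. It held 1646 CPM of Cps1, against 508.3 and 569.8 CPM in the other R&Z del livers of its batch and 1406 to 1767 CPM in controls. Its Arg1 was 1726 CPM, against 417.9 and 359.4 CPM, with controls at 1552 to 2234 CPM. Its Otc of 643.6 CPM was likewise within the control range of 512.3 to 855.3 CPM, and its 7 periportal genes outside the cycle summed to 2701 CPM, against 598.6 and 1084 CPM.

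With all libraries, the log2 fold changes at 7M were -0.81 for Cps1 (SE 0.25), -0.75 for Otc (SE 0.27), -1.02 for Arg1 (SE 0.33) and 0.76 for Nags (SE 0.22). Without the apart library they were -1.18, -1.01, -1.45 and 0.92, and all 4 passed beside Gls2 (-1.51), 5 members in all. Nags, the only one of these with a positive change, was at 120.1 and 127.3 CPM in batch 2 and 90.7 and 106.0 CPM in batch 1, and at 64.0 CPM in the library that stood apart, with controls from 55.4 to 67.6 CPM. Hepatocyte markers summed to 73470 to 110100 CPM in R&Z del and 115500 to 130100 CPM in R&Z flox livers of batch 2 at 7M, with the lowest sum in the library that stood apart, and their part was not tested.

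Asl, whose groups did not overlap at 1M, had a log2 fold change of 0.27 (SE 0.23) at 7M. The difference between 7M and 1M for Asl was 1.23 (SE 0.35, unadjusted p = 0.00161, adjusted p = 0.570). Without TMM the median of all genes moved by -0.25 for this difference. All 1M livers were virus-induced and all 7M livers tamoxifen-induced, so age and the way of induction cannot be told apart in it. No member, and 0 of 12848 genes, passed for any difference between ages by edgeR, and DESeq2 called 1, Asl between 7M and 1M. At an unadjusted p under 0.05 there were 2 members between 7M and 1M (5.85% of genes), 1 between 3M and 1M (5.1%) and 0 between 7M and 3M (4.18%).

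After chronic damage the question was how far each genotype's cycle genes departed from its controls during recovery. At 4 days after the last CCl4 injection, Gls2, Otc, Arg1, Ass1 and Slc25a13 fell in R&Z del livers. These are 5 of 10 members called lower, and 13% of the 11358 genes tested were called lower. All 10 fitted changes were negative, with a median of -0.61 against 0.06 over all genes.

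These livers differed in composition. The 5 cholangiocyte markers, all of which were called higher, summed to 3490 and 6224 CPM in the R&Z del livers and to 86.4 and 156.5 CPM in controls, and no listed marker of another cell type was at 0. Stellate and fibroblast markers summed to 216.5 and 626.9 CPM against 65.3 and 101.4 CPM, with 2 of 6 called higher. Hepatocyte markers summed to 75090 and 91680 CPM against 97440 and 102300 CPM, with 2 of 6 called lower. The part of these markers in the result was not tested. The TMM scaling lowered the R&Z del values. Without it the median of all genes moved by 0.51, the calls over all genes went from 1653 higher and 1482 lower to 4541 and 434, and each member below is given on both scales.

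Gls2 was at 369.6 and 373.6 CPM in R&Z flox and at 63.7 and 78.9 CPM in R&Z del livers 4 days after CD. This was 7.35-fold lower (log2 fold change -2.88, SE 0.34, adjusted p = 0.00187), the largest difference of a member in any of the 8 comparisons of genotypes, and -2.36 without TMM scaling. Otc was at 595.1 and 505.8 CPM against 314.3 and 272.4 CPM (log2 fold change -1.39, SE 0.34, adjusted p = 0.0240), and at -0.89 without TMM. Arg1 was at 1417 and 1406 CPM against 848.2 and 773.1 CPM (-1.28, SE 0.25, adjusted p = 0.0109), and at -0.78 without TMM. These 3 genes passed on both scales, and their groups did not overlap, as for 10.4% of genes. Ass1 did not overlap either, while Nags and Glud1 lay above the controls in both R&Z del livers in plain CPM. The share of all genes in that higher direction is not given here, and after TMM scaling both genes lay below the controls instead.

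Ass1 was at 676.3 and 578.1 CPM in R&Z flox and 508.0 and 510.6 CPM in R&Z del livers (-0.79 on the log2 scale, SE 0.29, adjusted p = 0.0892). For Slc25a13, which exports the aspartate that Ass1 consumes, the values were 98.7 and 89.4 against 91.6 and 69.2 CPM, and the log2 fold change was -0.70 (SE 0.24, adjusted p = 0.0676). Neither passed without TMM scaling, where the values were -0.28 and -0.20. Cps1 (-0.43), Nags (-0.31), Slc25a15 (-0.35) and Glud1 (-0.06) did not pass and changed sign without TMM, to 0.08, 0.20, 0.16 and 0.45, and Asl (-0.52, and -0.02 without TMM) did not pass either. The call of Ass1 rested on every one of the 4 libraries, and without R&Z del replicate 2 or R&Z flox replicate 1 only Gls2 and Arg1 remained.

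At 50 days, Arg1, Gls2 and Otc were lower in R&Z del livers, 3 of 10 members, against 4.63% of genes. A lone R&Z flox library was used, which was assumed to vary like the other groups. Another library with a title of this group has labels of an undamaged 3M liver and was left out, and the study's own list counts both 170-day controls at 50 days as well. With these 2 added as controls, 5 members were called. Arg1 was at 1743 CPM in that control and at 468.5 and 609.5 CPM in R&Z del livers, a 3.87-fold lower level (log2 fold change -1.95, SE 0.29, adjusted p = 0.0421). Gls2 was at 293.9 CPM against 120.7 and 73.2 CPM (-1.79, SE 0.38, adjusted p = 0.0589), and Otc at 804.4 CPM against 324.6 and 406.2 CPM (-1.39, SE 0.39, adjusted p = 0.0934). Otc lost its call when either R&Z del library was left out, and Arg1 when R&Z del replicate 1 was.

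Cps1 at 50 days was at 1404 CPM in the control and 772.9 and 807.7 CPM in R&Z del livers, and its log2 fold change of -1.07 (SE 0.46) did not pass. Slc25a13 (-0.93, SE 0.28, adjusted p = 0.102) and Ass1 (-0.92, SE 0.35, adjusted p = 0.163) did not pass either. In plain CPM, 8 members lay below the control in both R&Z del libraries, where 21% of genes did. Only Nags and Glud1 overlapped. Without TMM the median of all genes moved by 0.25, the calls went from 337 higher and 526 lower to 188 and 47, and Arg1 and Gls2 stayed called. Cholangiocyte markers summed to 577.8 and 1131 CPM in R&Z del livers and 99.3 CPM in the control, with 1 of 5 called higher, and their part was not tested.

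At 170 days 0 of 10 members passed edgeR's test, and 0.643% of genes did. There were 3 members at an unadjusted p under 0.05, where 9.26% of genes had such a p, and DESeq2 called 1, Arg1. Arg1 was at 1019 and 1534 CPM in R&Z flox and 845.6 and 779.3 CPM in R&Z del livers (log2 fold change -0.86, SE 0.25, adjusted p = 0.270). Gls2 was at 161.5 and 235.0 CPM against 112.4 and 120.7 CPM (-0.97, SE 0.32, adjusted p = 0.355), and Asl at 661.6 and 566.5 CPM against 382.2 and 399.5 CPM (-0.86, SE 0.33, adjusted p = 0.445). The groups of these 3 genes did not overlap, as for 7.18% of genes. Nags, Slc25a13 and Glud1 lay the other way, with both R&Z del livers above both controls. The share of all genes in that direction is not given here.

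The controls at 170 days were unlike each other. R&Z flox replicate 1 held 428.9 CPM of Cps1 and 339.6 CPM of Otc, and replicate 2 held 1090 and 728.4 CPM, with the R&Z del livers between them for Cps1 (695.8 and 904.6 CPM) and Otc (575.7 and 454.4 CPM). Replicate 1 also had 244.1 CPM of cholangiocyte markers, against 56.0 CPM. Without TMM the median of all genes moved by 0.21 and the calls went from 47 higher and 26 lower to 60 and 19.

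The difference between genotypes was smaller at 170 than at 4 days for Gls2, by 1.91 on the log2 scale (SE 0.46, adjusted p = 0.0583), the only member called, against 3.74% of genes called in that direction. It lost this call without any one of the 7 libraries other than R&Z flox replicate 2 at 170 days, and without that library 5 members were called. Without TMM Gls2 stayed called, while the median of all genes moved by -0.30 and the calls went from 425 higher and 445 lower to 187 and 522. No member was called for the difference between 50 and 4 days, where 1.5% of genes were, and 0 members had an unadjusted p under 0.05 (15.8% of genes). There the median moved by -0.26 without TMM and the calls went from 72 higher and 98 lower to 28 and 83.

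**Figure D2:**
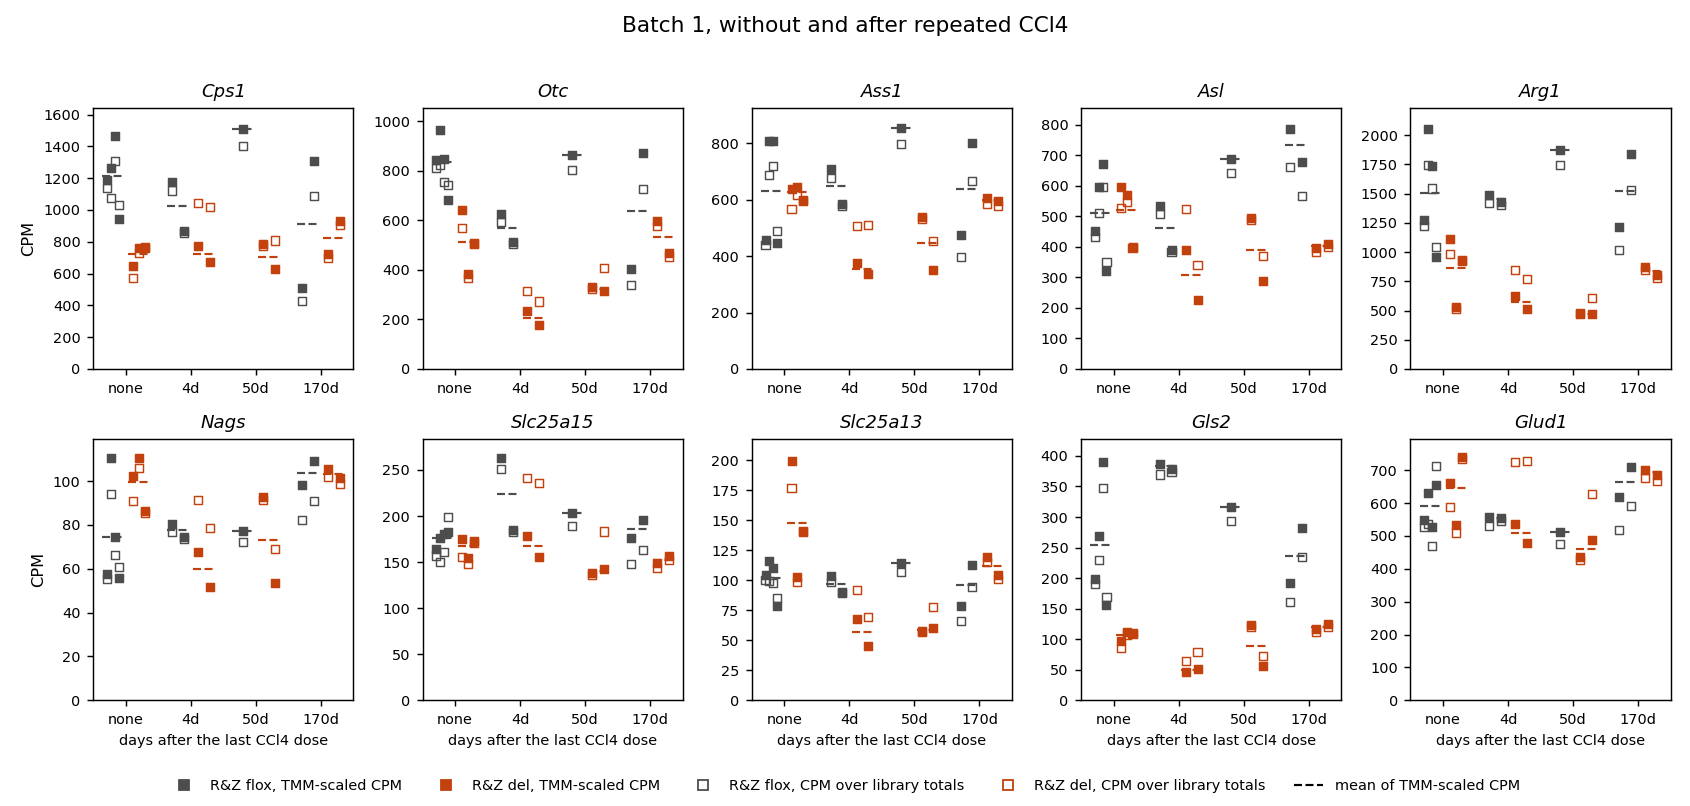
Levels of the 10 genes in batch 1 without CCl4 (3M and 7M together) and 4, 50 and 170 days after the last injection (x axis), as CPM (y axis, from 0) after TMM scaling (filled squares, dashed lines for their means) and over plain library totals (open squares), R&Z flox in grey and R&Z del in orange. Gls2 of R&Z del livers at 4 days lies lowest after TMM scaling. Over library totals, 1 R&Z del liver of 50 days, at 73.2 CPM, lies between the 4-day values. For Glud1 the 725.4 and 726.4 CPM over library totals at 4 days lie above the controls and the TMM-scaled values do not.

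Set against undamaged livers of the same genotype in batch 1, no member passed edgeR's test in R&Z flox livers at 4, 50 or 170 days. Of the 12608 genes, 8.21%, 0.00793% and 0.00793% were called in either direction. At 4 days the calls over all genes went from 583 higher and 452 lower to 604 and 293 without TMM. There 1 member had an unadjusted p under 0.05, Slc25a15 (log2 fold change 0.35, SE 0.16, adjusted p = 0.238), where 19.6% of genes had such a p. At 50 and 170 days 0 members did, beside 2.53% and 8% of genes. In plain CPM, control livers at 4 days held 505.8 and 595.1 CPM of Otc, beside 743.5 to 823.8 CPM in undamaged controls of batch 1. They held 369.6 and 373.6 CPM of Gls2, beside 169.6 to 347.1 CPM. Neither gene had an unadjusted p under 0.05 by edgeR, and the share of all genes separated in this way was not taken. Cps1 overlapped, at 855.0 and 1122 CPM against 1030 to 1305 CPM.

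In R&Z del livers at 4 days, Otc, Ass1, Asl, Nags, Slc25a13 and Gls2 were lower than in undamaged R&Z del livers, 6 of 10 members, against 24.3% of genes called lower. Slc25a13 was at 91.6 and 69.2 CPM, against 98.9 to 176.7 CPM in the 3 undamaged livers (log2 fold change -1.47, SE 0.28, adjusted p = 0.00133), and Otc at 314.3 and 272.4 CPM, against 368.8 to 568.0 CPM (-1.36, SE 0.32, adjusted p = 0.00440). Gls2 (-1.23, SE 0.36), Asl (-0.96, SE 0.29), Ass1 (-0.93, SE 0.31) and Nags (-0.86, SE 0.28) followed. Without TMM the median of all genes moved by 0.67, the calls went from 3532 higher and 3064 lower to 7027 and 904, and of the 6 only Otc (-0.69) and Slc25a13 (-0.80) stayed called. On that scale Slc25a15 (0.71) and Glud1 (0.43) were called higher, and the value of Glud1 with TMM was -0.23. Without R&Z del replicate 2 at 4 days, Slc25a13, Otc and Gls2 remained.

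At 50 days Slc25a13, at 56.8 and 77.7 CPM, was still lower than in undamaged R&Z del livers (log2 fold change -1.42, SE 0.28, adjusted p = 0.00620, and -1.07 without TMM, where it stayed called), and Arg1 was lower with TMM (-0.97, SE 0.35, adjusted p = 0.0569). Arg1 lost its call without either R&Z del library of 50 days, without that of 3M or without replicate 1 of 7M, and Slc25a13 remained called each time. These were 2 of 10 members, against 18% of genes called lower. The scaling moved the median of all genes by 0.33 here, from 2279 higher and 2270 lower to 3710 and 852. At 170 days 0 members passed, 0 of 12608 genes did, and 0 members had an unadjusted p under 0.05 in R&Z del livers (8.78% of genes).

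The difference from undamaged livers, here called the response to CCl4, itself differed between genotypes for 2 members at 4 days. These were Gls2 (difference of log2 fold changes -1.74, SE 0.46, adjusted p = 0.0256 by edgeR) and Slc25a13 (-1.32, SE 0.36, adjusted p = 0.0275), against 13% of genes called in that direction. As above, time since deletion cannot be told apart from CCl4 in this response. Without TMM, where the median of all genes moved by 0.58 and the calls over all genes from 1599 higher and 1644 lower to 4129 and 477, Gls2 stayed called at -1.17 and Slc25a13 did not. The call of Slc25a13 was lost without R&Z del replicate 2 or R&Z flox replicate 1 of 4 days. At 50 days Slc25a13 was called (-1.53, SE 0.40, adjusted p = 0.0826), 1 member against 2.7% of genes, and it was not called without TMM, which moved the median by 0.31 and the calls from 130 higher and 340 lower to 0 and 3. When libraries were left out in turn, this call remained only without R&Z del replicate 2 of 7M, R&Z flox replicate 3 of 3M or R&Z flox replicate 1 of 7M. With the undamaged 7M livers alone as reference, none of these 3 differences passed. At 170 days none passed, 0 of 12608 genes did, and 1 member, Asl, had an unadjusted p under 0.05 (7.53% of genes).

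After partial hepatectomy, which removes part of the liver and brings regrowth, Gls2 and Arg1 were again the members that were lower in R&Z del livers at 7 days. They were 2 of 10 members, against 0.149% of 12773 genes called lower. Gls2 was at 325.8, 319.7 and 517.2 CPM in R&Z flox and 131.7, 58.9 and 117.9 CPM in R&Z del livers, 4.03-fold lower (log2 fold change -2.01, SE 0.36, adjusted p = 0.00977). Arg1 was at 1086, 1537 and 1871 CPM against 798.3, 436.6 and 747.8 CPM (-1.28, SE 0.26, adjusted p = 0.0492). These were the members whose groups did not overlap in the lower direction, as for 4.63% of genes. Arg1 lost its call without R&Z del replicate 2 or 3 or R&Z flox replicate 3, and Gls2 did not.

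Otc at 7 days after PHx was at 630.5, 737.5 and 475.1 CPM in R&Z flox and 538.9, 404.3 and 444.3 CPM in R&Z del livers, with overlapping groups (-0.50, SE 0.20, adjusted p = 0.817). Slc25a13 lay the other way, at 39.5 to 96.7 CPM in R&Z flox and 111.3 to 120.1 CPM in R&Z del livers without overlap, as for 8.24% of genes, and its log2 fold change of 0.59 (SE 0.28) did not pass (adjusted p = 0.817). Without TMM the calls over all genes went from 26 higher and 19 lower to 31 and 16, and Gls2 and Arg1 stayed called. Hepatocyte markers summed to 71650 to 94150 CPM in R&Z del and 127100 to 152200 CPM in R&Z flox livers at 7 days, with 1 of 6 called lower, and cholangiocyte markers to 29.6 to 81.7 and 75.6 to 111.1 CPM. At 21 days the hepatocyte sums were 70810 to 102600 and 112500 to 130600 CPM, again with 1 of 6 lower, and the part of these markers was not tested.

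At 21 days, Otc and Arg1 were lower in R&Z del livers, 2 of 10 members, against 0.243% of genes. Otc was at 669.7, 484.1 and 394.1 CPM in R&Z flox and at 257.7, 197.0 and 363.0 CPM in R&Z del livers (log2 fold change -1.27, SE 0.21, adjusted p = 0.00651). The highest R&Z del value was that of the only female of the hepatectomy experiment, and without a term for sex Otc did not pass while Arg1 did. Arg1 was at 1054, 1125 and 1199 CPM against 361.4, 661.0 and 459.2 CPM (-1.33, SE 0.27, adjusted p = 0.0301).

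Gls2 at 21 days after PHx was at 356.3, 219.8 and 360.2 CPM in R&Z flox and 115.0, 177.0 and 91.2 CPM in R&Z del livers. The log2 fold change was -1.41 (SE 0.35, unadjusted p = 0.000689, adjusted p = 0.142 by edgeR). By the rule the study used after PHx, an unadjusted p under 0.05 with a log2 fold change beyond 1, Gls2 joined Otc and Arg1, 3 members against 3.52% of genes. Arg1 lost its adjusted call without R&Z del replicate 1 or 3 or R&Z flox replicate 3. Without TMM the median of all genes moved by 0.11, the calls went from 23 higher and 31 lower to 28 and 22, and Otc and Arg1 stayed called. Glud1 was the only member whose R&Z del livers all lay above the controls (535.4 to 665.3 against 404.4 to 518.5 CPM, as for 9.22% of genes), and its fitted change was 0.28 (log2, SE 0.17, adjusted p = 0.668).

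Against undamaged livers of 1M, no member passed in either genotype at 7 or 21 days after PHx, where 0.0235% and 0% of genes did in R&Z flox and 0.0157% and 0% in R&Z del livers. The comparisons share these undamaged livers. In R&Z del livers at 7 days, Otc was at 404.3 to 538.9 CPM against 217.4 to 419.4 CPM undamaged (log2 fold change 0.85, SE 0.21, unadjusted p = 0.000542, adjusted p = 0.432), and DESeq2 called 1 member there. At an unadjusted p under 0.05 there were 0 and 1 members in R&Z flox livers at 7 and 21 days (5.79% and 6.93% of genes), and 2 and 0 in R&Z del livers (4.99% and 4.91%). No difference between the genotypes' responses, or between 21 and 7 days, passed for a member or for any of the 12773 genes, with 2 members at an unadjusted p under 0.05 between the days (6.06% of genes), 2 for the response at 7 days (4.75%) and 0 for that at 21 days (5.76%).

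**Figure D3:**
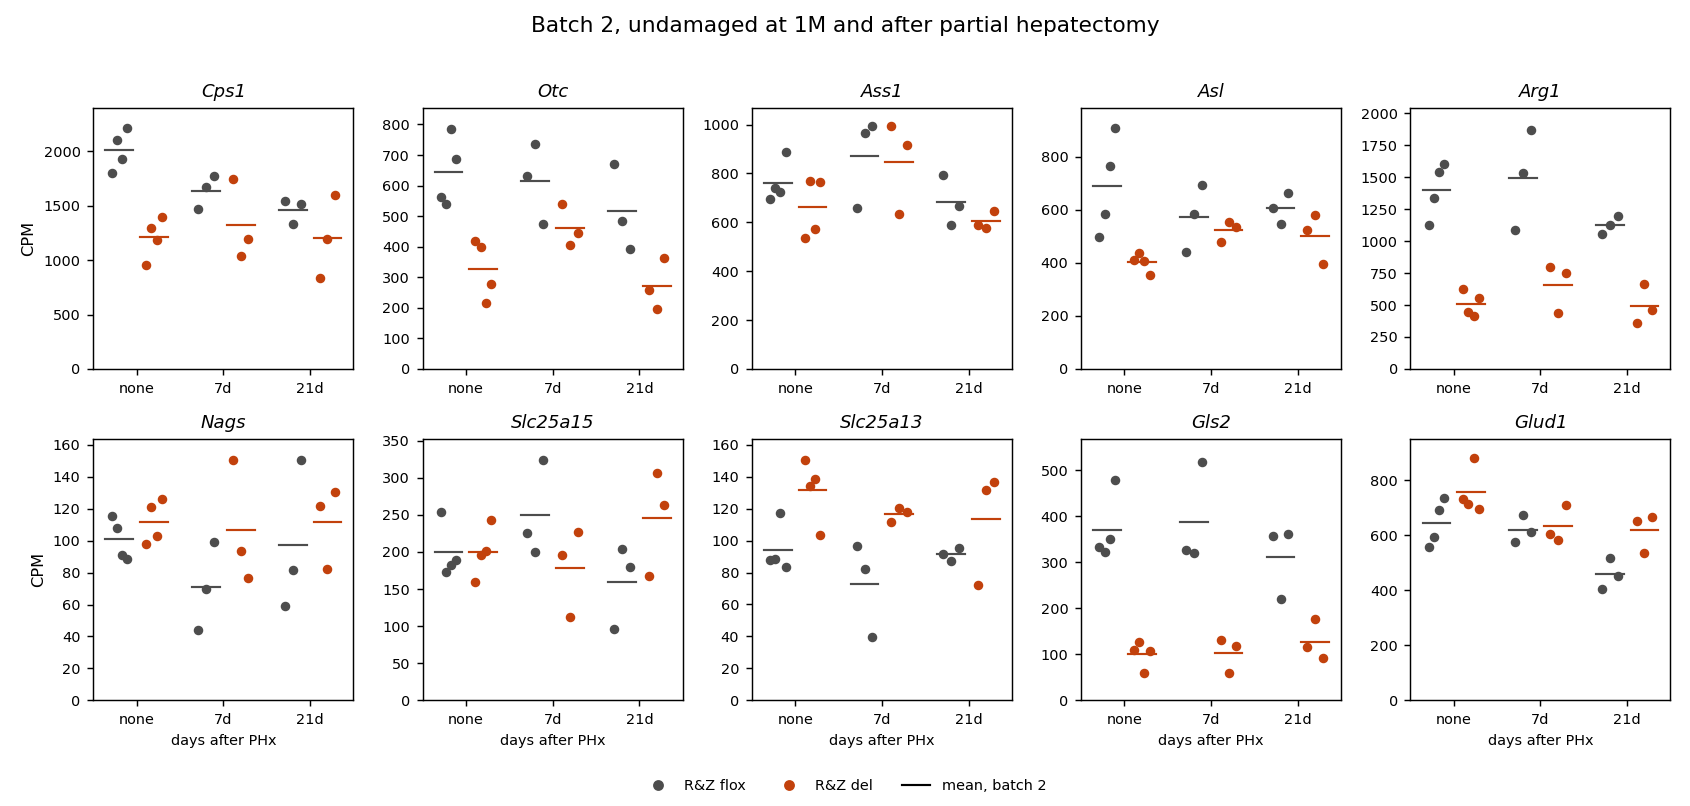
Levels of the 10 genes in batch 2, undamaged at 1M and 7 and 21 days after PHx (x axis), as CPM (y axis, from 0) with 1 point per library and lines for the means, R&Z flox in grey and R&Z del in orange. For Gls2 and Arg1 the R&Z del livers lie below the controls at every time, at most 177.0 CPM of Gls2 against at least 219.8 CPM.

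**Figure D4:**
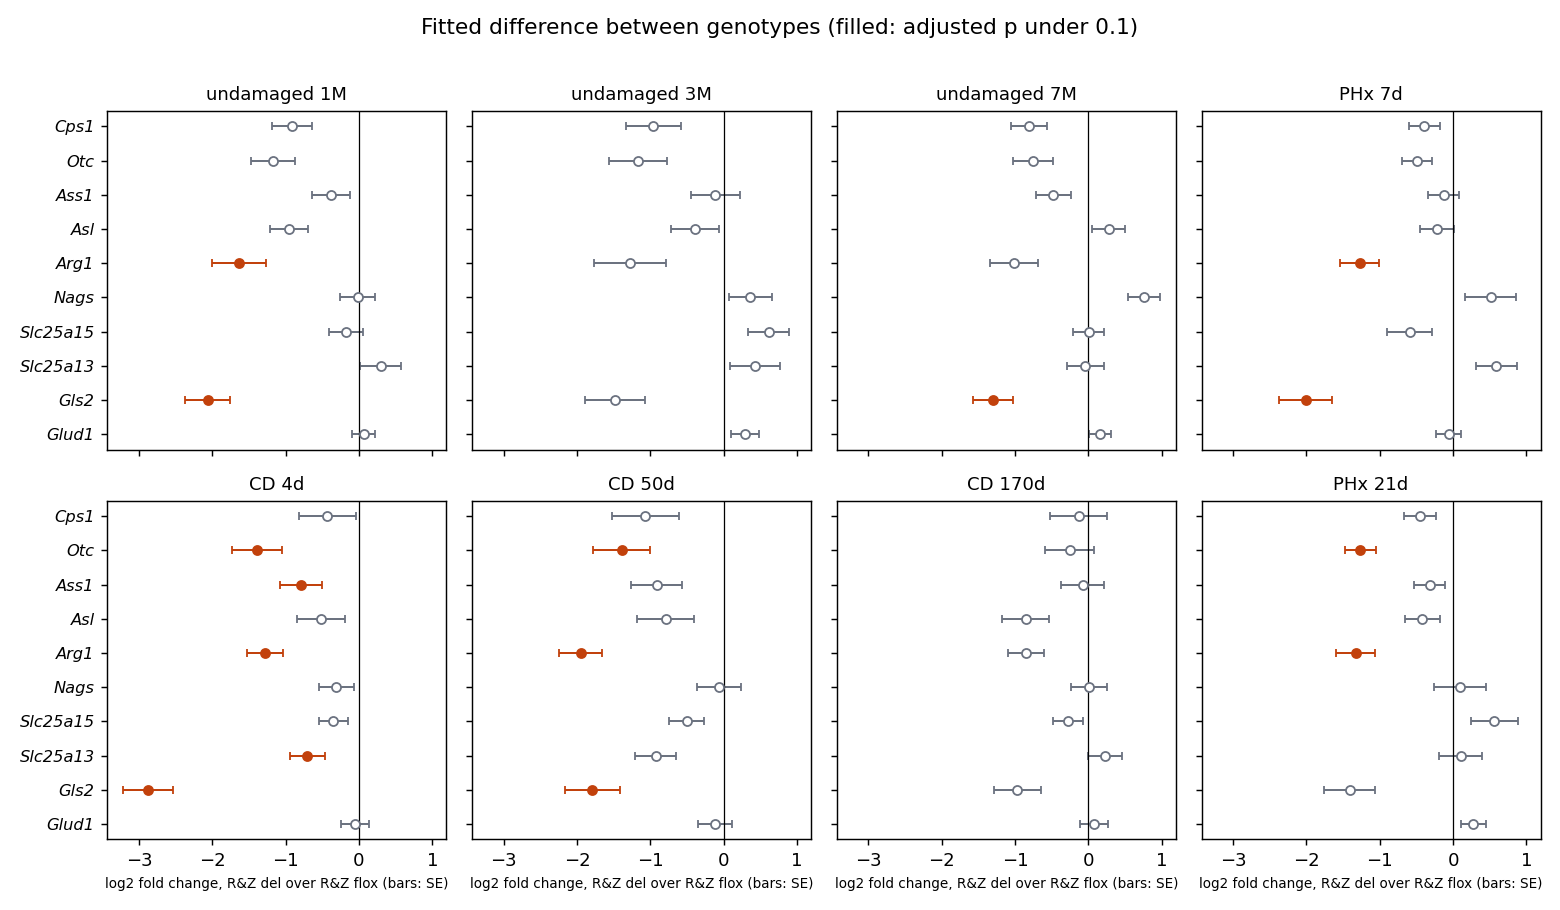
Fitted log2 fold changes, R&Z del relative to R&Z flox (x axis), for the 10 genes (y axis) in the 8 comparisons, with bars for the standard error and filled orange points where the adjusted p by edgeR was under 0.1. Gls2 runs from -2.88 (CD 4d) to -0.97 (CD 170d) and Arg1 from -1.95 (CD 50d) to -0.86 (CD 170d), all below 0.

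Across the 8 comparisons of genotypes, which hold different mice, Gls2 was called lower in 5 and Arg1 in 5, Otc in 3, and Ass1 and Slc25a13 in 1 each. Cps1, Asl, Nags, Slc25a15 and Glud1 were called in none.

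Around the cycle, some genes of pericentral ammonia capture were higher in R&Z del livers. The calls of this and the following lists were made with TMM scaling and were not repeated without it. In the list of Glul, Rhbg, an ammonia transporter, Slc1a2, a glutamate carrier, and Oat, ornithine aminotransferase, 2 of 4 genes were called higher at 1M, 3 at 3M, 3 at 7M, 3 at CD 4d, 0 at CD 50d, 2 at CD 170d and 2 at each time after PHx, and none lower. Over all genes, 0.233%, 0.156%, 0.342%, 14.6%, 2.97%, 0.414%, 0.204% and 0.18% were called higher in these 8 comparisons, in the same order. Slc1a2 was at 384.5 to 839.3 CPM in R&Z del and 46.7 to 128.8 CPM in R&Z flox livers at 1M (log2 fold change 2.46, adjusted p = 8.02e-05), and at 21.96 and 25.7 against 3.66 and 3.93 CPM at CD 4d (2.17, adjusted p = 0.00445). Glul itself was low in both genotypes at CD 4d, at 55.0 and 61.8 CPM in R&Z del and 20.5 and 53.5 CPM in R&Z flox livers. Oat was also low at CD 4d, at 16.98 and 19.44 CPM in R&Z flox livers, from 247.5 to 874.6 CPM in undamaged controls of the batch, and at 151.5 and 182.1 CPM in R&Z del livers (2.72, adjusted p = 0.000801).

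Periportal genes outside the cycle were lower in most comparisons. Of 7 listed, 4 were called lower at 1M, 2 at 3M, 6 at 7M, all 7 at CD 4d, 4 at CD 50d, 0 at CD 170d, and 5 and 4 at 7 and 21 days after PHx. Over all genes, 0.265%, 0.07%, 0.233%, 13%, 4.63%, 0.229%, 0.149% and 0.243% were called lower, in the same order. The median over these 7 was -2.60 on the log2 scale at 1M and -1.96 at CD 4d, beside -0.65 and -0.61 for the cycle and ammonia entry. These genes are known periportal markers, such as the histidine ammonia lyase gene Hal (-3.85 at CD 4d) and the serine dehydratase gene Sds (-4.42).

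Branches that share the metabolites of the cycle showed few calls. Of the ornithine, arginine and proline genes, 0 of 5 tested were called at 1M and 3M, 2 higher at 7M, and 1 higher at each time after PHx, while 2 of 6 were lower at CD 4d. The gene that recurred was Prodh, proline dehydrogenase, at 467.0 to 524.7 CPM in R&Z del and 207.2 to 286.4 CPM in R&Z flox livers at 1M, where it was not called. After PHx it was called at 7 days (log2 fold change 1.03, adjusted p = 0.00885) and 21 days (1.46, adjusted p = 0.000296). No aminotransferase, amino acid carrier, carbonic anhydrase or sirtuin of the lists was called in undamaged livers or after PHx. At CD 4d 2 of 5 aminotransferases, 4 of 7 carriers, all 4 carbonate and sirtuin genes and 3 of 7 regulators were lower, beside the 13% of all genes that were. These counts hold with TMM scaling only, and without it far fewer of all genes were called lower at CD 4d. At CD 50d 1 carrier and 1 carbonate gene were lower, and at CD 170d none was.

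Across all grouped libraries, the genes whose log2 CPM followed the mean of the standardised members most closely were Cth (Pearson r = 0.807), Amy1 (0.798), Bhmt2 (0.772), Pdhx (0.768) and Hccs (0.767) in the 18 grouped libraries of batch 1. They were Selenop (0.833), Cfi (0.819), Cth (0.817) and Fgg (0.802) in the 30 of batch 2, and Cth was in both lists. Within the members, the correlation with their own mean, which contains each of them, ran in batch 2 from 0.832 for Cps1 and 0.749 for Ass1 down to 0.103 for Slc25a13, 0.054 for Glud1 and -0.21 for Nags. In batch 1 it was highest for Arg1 (0.820) and lowest for Glud1 (-0.047) and Nags (-0.039). The libraries share genotype, treatment and batch, so these values describe likeness only.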

How the data were processed

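Whole-liver Smart-Seq2 libraries were sequenced in 2 batches, and 53 of the 55 labelled samples had a column of counts. Per the deposited records, the authors trimmed the reads, aligned them to mm10 with STAR 2.5.0a and counted them per RefSeq gene without regard to strand with featureCounts (1.5.0-p1 and 1.5.0-p3), and the deposited values are raw read counts. The study's supplementary methods name another featureCounts version and the UCSC gene annotation of mm10. No 2 libraries held identical counts. Titles and other labels conflict for 7 libraries of batch 1, of which 5 entered no comparison and 2 were placed by their characteristics.

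Here CPM was taken over all reads counted in a library, and the 34490 symbols common to both batches were analysed. Counts were tested with edgeR 4.0.16 in R 4.3.3 (TMM scaling, quasi-likelihood test, Benjamini-Hochberg adjustment over all genes tested, threshold 0.1), with sex and batch as terms in undamaged livers and sex as a term after PHx, where the 1M libraries were included. CD libraries were fitted apart (11 libraries), and with the undamaged libraries of batch 1 for the response to CCl4 (18 libraries). Genes needed a CPM of at least 1 in 3 libraries, or in 6 in the CD fit. Libraries held totals of 11721687 to 38692089 reads and at least 668 reads of each member. The small number of libraries per group limits the precision. The fits were tested on simulated counts, where 25.5% of genes with a true log2 change of 2 were recovered at 1M and 85.7% at CD 4d. The share of simulated calls that were false was highest at CD 50d, the comparison with a lone control, at 13.5%. DESeq2 1.42.0 and other settings were alternatives.

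The members and gene lists were chosen with earlier results of these data known. All 10 members are named, with Glul and at most the 8 genes of the neighbouring lists with the lowest adjusted p (Rhbg is named as a list member only), and, for likeness, the 5 genes of each batch with the highest Pearson correlation to the members' mean, of which 1 is not reported here. Promoters came from RefSeq (GRCm38.p6).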

Additional observations from a re-analysis of the deposited data

Results flagged for a closer look

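The 10 genes were examined in both groups of 4 libraries, 20 sets of values in all, for a library far from the others. 1 set was flagged, and chance flags about 1 in 20. It was Slc25a13 in undamaged R&Z flox livers at 1M, where replicate 3 held 117.3 CPM and the others 83.2 to 88.6 CPM.

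Of the 110 member values tested for a difference between effects, 4 passed edgeR's adjusted threshold. The difference between genotypes in Gls2 was 1.91 higher on the log2 scale at 170 than at 4 days after CCl4, from -2.88 to -0.97. The response to CCl4 at 4 days was lower in R&Z del than in R&Z flox livers by a log2 difference of -1.74 for Gls2 and -1.32 for Slc25a13. At 50 days it was -1.53 for Slc25a13, with a single control library.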

How the results depend on the processing

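The counts of members called by edgeR moved by over 1.5 times under these settings. Without a filter on low counts they were 5 at 1M, 1 at 3M, 3 at 7M, 6 at CD 50d, 2 at CD 170d, 3 for CD 170d minus 4d, 1 for R&Z del PHx 7d against undamaged, 6 for R&Z del CD 50d against undamaged, and 4 and 2 for the responses at CD 4d and 50d. With DESeq2 they were 5 at 1M, 1 at 3M, 5 at 7M, 1 for 7M minus 1M, 1 at CD 170d, 3 for CD 170d minus 4d, 1 for R&Z del PHx 7d and 4 for R&Z del CD 50d. The likelihood ratio test gave 4 at 1M and 1 at CD 170d. Male mice alone gave 1 at 1M, 1 for R&Z del CD 50d and 0 for the response at CD 50d. Each batch alone gave 0 at 7M. Hepatectomy libraries alone gave 1 at PHx 7d and 0 at PHx 21d, and no sex term gave 1 at PHx 21d. With R&Z flox of 170 days also as controls, CD 50d gave 5. With 7M alone as reference, R&Z del CD 50d gave 1 and both responses 0. Without TMM, an alternative chosen after seeing the data, they were 1 at 1M, 3 at CD 4d, 1 for R&Z del CD 50d, and 1 and 0 for the responses at CD 4d and 50d. Leaving out 1 library gave 1 to 2 at 1M, 0 to 5 at 7M, 2 to 4 at CD 4d, 1 to 2 at CD 50d, 0 to 5 for CD 170d minus 4d, 0 to 1 for CD 50d minus 4d, 1 to 2 at PHx 7d, 1 to 3 at PHx 21d, 0 to 1 for R&Z flox CD 170d, 3 to 7 and 1 to 5 for R&Z del CD 4d and 50d against undamaged, and 1 to 4 and 0 to 2 for the responses. Replicate numbers did not pair the samples (correlations of -0.083 to -0.05 at 1M, -0.032 to 0.133 at 7M, -0.064 to 0.004 after PHx, and, with 2 pairs each, 0.328 at CD 4d and -0.254 at CD 170d), and a replicate block gave 4 at 1M, 3 at 3M, 3 at 7M and 1 at PHx 7d. The cause of these moves was not tested. Of 367 alternative values of the 27 called values, 292 kept their call, 75 lost it and 0 changed direction. At a true log2 change of 2, simulated recovery ran from 15.5% at 3M to 85.7% at CD 4d.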

Other observations

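In the 5 libraries of batch 1 that were left out because their titles conflict with their other labels, Gls2 was at 403.0, 151.4, 141.5, 99.9 and 495.6 CPM. Arg1 was at 1904, 564.1, 898.9, 848.5 and 1889 CPM in the same order, so the 2 libraries with the most Gls2 also held the most Arg1. Cps1 ranged from 900.2 to 1410 CPM, Otc from 416.3 to 789.0 CPM and Ass1 from 600.1 to 1048 CPM. Nags ran from 65.8 to 109.5 CPM, with the lowest 2 values in the libraries with the most Gls2. These libraries were assigned to no genotype.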
